A study of Mus musculus with 2 samples.

Results

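The coreceptor genes Cd4, Cd8a and Cd8b1, 3 of the 27032 genes counted, were followed through the CD11c+ cells of the mouse spleen, where, among cells assigned to a class, most of those that carried Cd4 or Cd8a were dendritic cells or macrophages and most of those that carried Cd8b1 were T cells. The genes were chosen by name. The data were single-cell transcriptomes of 2 samples of wild-type mice, described as C57BL/6J mice, without infection or treatment named in the labels. Splenic cells were enriched on CD11c magnetic beads and captured in 1 BD Rhapsody run whose other mice are not analysed here, and how many mice went into each sample is not stated in what was read. Cells were assigned to 9 classes by thresholds on unique molecular identifiers (UMIs, counted molecules) of gate genes, taken in order, and the UMIs of a class were then summed within each sample. The gates were Vcam1 and C1qb for macrophages, Ccr7 and Fscn1 for mature dendritic cells (mature DCs), Clec9a and Xcr1 for type 1 conventional dendritic cells (cDC1s), Siglech and Ccr9 for plasmacytoid dendritic cells (pDCs), Cd79a for B cells, Cd3e for T cells, Ncr1 for NK cells, Clec4a4 for DCIR2 cDC2s, and Clec10a with Cd209a for CLEC10A cDC2s.

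CD4 and CD8 are the coreceptors of the T cell receptor. CD4 binds MHC class II and CD8 binds MHC class I, and in T cells their tails carry the kinase LCK to the receptor. The CD8α chain, made by Cd8a, pairs with itself or with the CD8β chain, made by Cd8b1, and the αβ form is the one of conventional cytotoxic T cells. Mouse splenic dendritic cells have long been divided by the same surface proteins into CD8α+ cells, which are cDC1s, and CD4+ cells, which are cDC2s.

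All 3 genes lie on chromosome 6 (GRCm38). Cd8b1 occupies bases 71322788 to 71337494 and Cd8a bases 71373427 to 71379173, both on the plus strand and 35932 bases apart. Cd4 lies 53.5 Mb further on, at bases 124864692 to 124888221 of the minus strand. No other annotated gene overlaps any of them. The Cd8a promoter is shown because Cd8a was the member that ran highest in a class other than T cells. It is the RefSeq window of 250 bases before and 50 bases after the annotated start (GRCm38.p6, chr6:71373177-71373476, plus strand), with the E-box CAGCTG in capitals.
Cd8a promoter: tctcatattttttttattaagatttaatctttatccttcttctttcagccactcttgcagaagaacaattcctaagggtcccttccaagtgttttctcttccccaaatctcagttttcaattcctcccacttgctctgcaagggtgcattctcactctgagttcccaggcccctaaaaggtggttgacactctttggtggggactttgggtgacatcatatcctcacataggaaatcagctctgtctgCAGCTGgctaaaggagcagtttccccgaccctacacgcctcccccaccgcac
The E-box spans the annotated start, and 16.3% of the 32851 promoters of the same length hold that motif on either strand. The letters TGTGGT of the RUNX core and AGATAA of a GATA core were not in this window on either strand, while 16.8% and 11.2% of all promoters held them. Of the 3 genes, only Cd8a had a matching promoter in the RefSeq table.

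The 2 samples held 3308 and 3085 cells with 46953398 and 43137746 UMIs, and shared no cell index. In these, Cd4 had 6287 and 6135 UMIs, Cd8a had 12679 and 13748, and Cd8b1 had 303 and 894. The gates assigned 4922 of the 6393 cells, and 1471 passed none. The labels were set beside marker lists, which hold the gate genes of each class as members. Those members are raised by the gating itself, so the counts are only in part a check of the labels. Markers of the own class were raised more than 1 log2 unit over the other cells for 10 of 10 in macrophages, 8 of 8 in mature DCs, T cells and NK cells, 7 of 7 in B cells, 7 of 8 in cDC1s, 4 of 5 in DCIR2 cDC2s, and 5 and 6 of 8 in CLEC10A cDC2s. Some markers of other lists were raised too. Macrophages raised 4 of 5 erythroid and 3 of 8 CLEC10A cDC2 markers in both samples. NK cells raised 3 of 8 T cell markers in both, T cells 2 and 3 of 8 NK markers, and B cells 2 and 1 of 8 T cell markers. The pDC class was small, with 14 and 20 cells, and 10 and 13 of them also passed another gate, most often that of CLEC10A cDC2s. It raised 7 and 6 of 8 pDC markers and 2 of 8 CLEC10A cDC2 markers, with no B or T cell marker raised, although B cell markers summed to 541 and 518 CPM.

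Cd8a was the coreceptor of the cDC1s. Its level there was 678 CPM (UMIs of the gene per 1000000 UMIs of the class) in replicate 1 and 723 CPM in replicate 2. It was 5.01 and 5.83 CPM in DCIR2 cDC2s and 5.68 and 6.64 CPM in B cells. The cDC1s were thus far above both classes in both samples, and the last pair did not differ beyond its spread (B minus DCIR2 0.12 log2, SE 0.53, edgeR adjusted p = 0.905). The log2 difference of cDC1s from DCIR2 cDC2s was 7.18 (SE 0.25, edgeR quasi-likelihood test, adjusted p = 1.43e-13, with 33.3% of all 12230 genes tested called in that contrast). From B cells it was 7.06 (SE 0.32, adjusted p = 1.33e-12, 39.3% of genes called).

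The Cd8a UMI was also widespread among single cDC1s. It was seen in 89.1% of the cDC1s of replicate 1 (95% Clopper-Pearson interval 86.7 to 91.2) and 91.5% in replicate 2 (89.3 to 93.5), with a highest single cell of 89 and 101 UMIs. In B cells, taken as the background, 5.41% and 3.48% of cells had it, at median depths of 7617 and 6897 UMIs per cell against 20185 and 21782.5 in cDC1s. Thinned to 3000 UMIs per cell, the shares were 71.2% and 73.5% in cDC1s and 2.06% and 1.68% in B cells, so the gap remained at equal depth. These intervals cover counting error only.

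The order of Cd8a levels below the cDC1s was pDC, T cell, mature DC, CLEC10A cDC2, macrophage, NK cell, B cell and DCIR2 cDC2. In pDCs it was 499 and 775 CPM, which overlapped the cDC1s (cDC1 minus pDC 0.44 log2, SE 0.20, edgeR adjusted p = 0.128, 20.2% of genes called). A single pDC held 37 of the 96 Cd8a UMIs of that class in replicate 1 and 66 of the 220 in replicate 2. Of these UMIs, 8 and 143 remained when the 10 of 14 and 13 of 20 pDCs that also passed another gate were left out. In T cells the Cd8a level was 277 and 334 CPM, lower than in cDC1s by a log2 difference of 1.45 (SE 0.19, edgeR adjusted p = 4.84e-06, 37.2% of genes called). The T cell sum pools cells with and without Cd8a, and 34.0% and 40.1% of its cells held a Cd8a UMI.

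Mature DCs, which carry CCR7 and are known to move to the T cell zone, had 174 and 272 CPM of Cd8a, and CLEC10A cDC2s had 64.1 and 58.4 CPM. Both were lower than in cDC1s, by 1.73 (SE 0.19, edgeR adjusted p = 3.15e-07, 42.0% of genes called) and 3.63 (SE 0.20, adjusted p = 3.89e-11, 30.7% of genes called). T cells and mature DCs did not differ beyond their spread (0.27, SE 0.20, edgeR adjusted p = 0.302, 38.2% of genes called), but among cells passing exactly 1 gate T cells were higher by 1.03 (adjusted p = 0.0101). Macrophages had 15.7 and 12.1 CPM. A single macrophage held 38.6% and 51.2% of that class's Cd8a UMIs, and the level was 3.59 and 2.71 CPM when cells that also passed another gate were left out. Macrophages, NK cells and B cells were neighbours that did not differ beyond their spread (edgeR adjusted p = 0.475 and 0.581), while macrophages were above B cells by 1.44 (SE 0.46, adjusted p = 0.0142, 49.1% of genes called). That direction turned among cells passing exactly 1 gate, where B cells had 6.13 and 6.82 CPM, and without Scrublet doublets, where macrophages had 5.17 and 3.50 CPM and B cells 5.87 and 6.82 CPM.

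**Figure D1:**
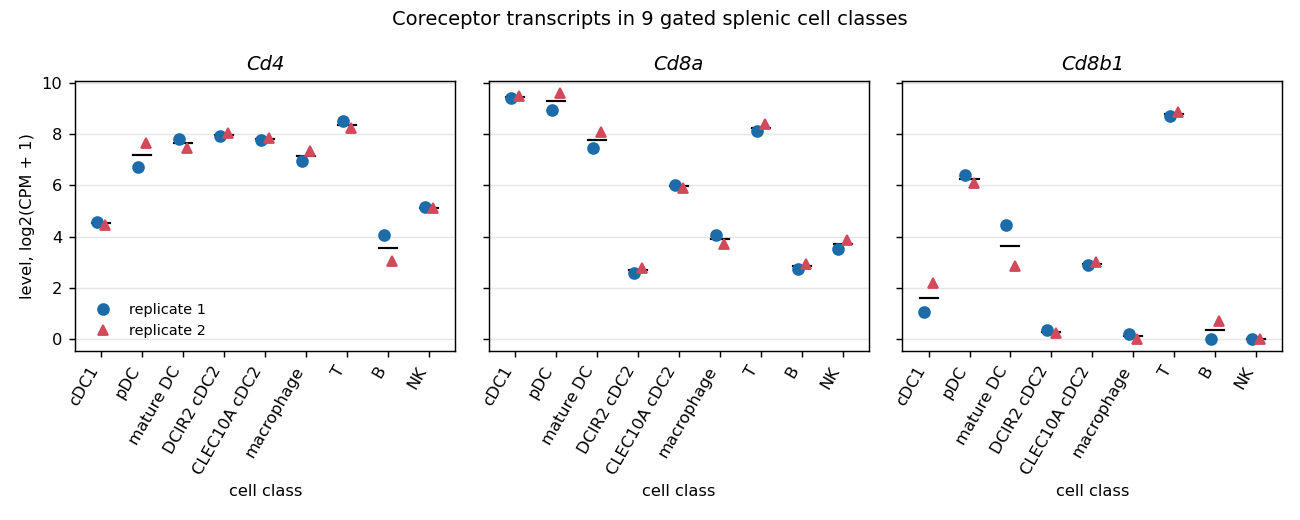
Levels of Cd4, Cd8a and Cd8b1 as log2(CPM + 1) in the 9 cell classes, with 1 point per sample (circle replicate 1, triangle replicate 2) and a bar at their mean. Cd8a is highest in cDC1s and pDCs, Cd4 is high in both cDC2 classes, mature DCs, macrophages, pDCs and T cells, and Cd8b1 is highest in T cells with pDCs next.

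Within the cDC1s, the Cd8a level varied with 2 genes that divide them. Cd207 encodes Langerin, the lectin of a marginal zone subset of cDC1s. Cells with a Cd207 UMI had 851 and 842 CPM of Cd8a, and cells without had 634 and 681 CPM. Both samples of the first group were above both samples of the second, with a log2 difference of 0.44 (SE 0.05, edgeR adjusted p = 0.0122), in a contrast where 0.801% of 11607 genes were called. The Cd207 cells were also deeper, with medians of 23588 and 26746 UMIs against 19206.5 and 20588, and the part of depth in the division was not tested. The 2 members besides Cd8a did not pass (Cd4 -0.37, adjusted p = 0.427, and Cd8b1 -0.92, adjusted p = 0.737).

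Ccr2 encodes a chemokine receptor, known for guiding monocytes out of the bone marrow. It was chosen as a dividing gene because earlier results had shown it to differ within the cDC1s. The cDC1s with a Ccr2 UMI had 444 and 470 CPM of Cd8a and those without had 753 and 793 CPM. Cells without Ccr2 were higher by 0.87 log2 (SE 0.06, edgeR adjusted p = 2.29e-05, 15.9% of 11773 genes called), and the call was lost without a filter on low counts (adjusted p = 0.0579). Median depths were close here, 20648.5 and 20304 UMIs with Ccr2 and 20122 and 22001.5 without. Even among cDC1s with a Ccr2 UMI, 74.7% and 81.2% of cells held a Cd8a UMI. Cd4 was 20.3 and 17.1 CPM with Ccr2 and 23.5 and 21.9 CPM without (log2 difference with minus without -0.39, SE 0.16, edgeR adjusted p = 0.146).

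Cd8b1 was a T cell transcript. It stood at 413 and 470 CPM in T cells and at 1.08 and 3.52 CPM in cDC1s. T cells were higher by 7.30 log2 (SE 0.36, edgeR adjusted p = 1.41e-11). In replicate 2, 40 of the 57 Cd8b1 UMIs of the cDC1s lay in a single cell, which held 35 Cd8a UMIs and no CD3 UMI, and without it the level was 1.05 CPM. Only 1.38% and 1.41% of cDC1s held a Cd8b1 UMI. In B cells there were 0 and 1 UMIs, and a count of 0 in replicate 1 allows a level of up to 4.26 CPM. Over both samples, with 75 and 1 UMIs, the level in cDC1s was 5.38 times that in B cells (exact interval 0.937 to 215). The interval covers counting error only and takes UMIs as independent. The 2 classes were not told apart (edgeR adjusted p = 0.20). NK cells had 0 UMIs in both samples, and T cells were at least 103-fold higher than the 3 UMIs that a count of 0 allows over the group.

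The 2 chains stood in different proportions in the classes. T cells held 1.49 and 1.41 Cd8b1 UMIs per Cd8a UMI, while cDC1s held 0.00159 and 0.00487. The ratio also reflects how well each transcript is captured and is compared only between classes. Among cells with a Cd8a UMI, 88.2% and 88.0% of T cells but 1.41% and 1.54% of cDC1s also held a Cd8b1 UMI, although the cDC1s were the deeper cells.

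The pDCs, CLEC10A cDC2s and mature DCs lay between cDC1s and T cells, and DCIR2 cDC2s, at 0.271 and 0.162 CPM of Cd8b1, lay below cDC1s. The pDCs had 83.2 and 66.9 CPM of Cd8b1 and 0.167 and 0.0864 Cd8b1 UMIs per Cd8a UMI. T cells were above them by 2.64 log2 (SE 0.41, edgeR adjusted p = 0.000101, 20.3% of genes called). The level in pDCs was 173 times that in B cells (exact interval of counting error 29.2 to 7045, edgeR adjusted p = 7.43e-05, 18.3% of genes called). These pDC values rest on 16 and 19 UMIs in 3 and 4 cells. Among pDCs passing exactly 1 gate there were 5 and 8 Cd8b1 UMIs, and in each sample all of them lay in 1 cell. T cell markers summed to 10.4 and 45.8 CPM in the pDC class, with Cd3e, Cd3g, Trac, Lck and Cd2 at 0 in both samples, against 5989 and 6595 CPM in T cells. CLEC10A cDC2s had 6.30 and 6.99 CPM, above cDC1s by 1.41 (SE 0.45, edgeR adjusted p = 0.0211), a call that was lost with DESeq2 (adjusted p = 0.0630) and among cells within 3 deviations (adjusted p = 0.0698), and whose size was 0.75 without replicate 1 and 2.24 without replicate 2. Mature DCs had 20.6 and 6.18 CPM. Of the 35 UMIs in replicate 1, 22 lay in 1 cell that also held 21 CD3 UMIs, and without cells with a CD3 UMI the levels were 8.35 and 4.02 CPM. T cell markers summed to 51.2 and 111 CPM in mature DCs, and their part in the result was not tested beyond that.

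**Figure D2:**
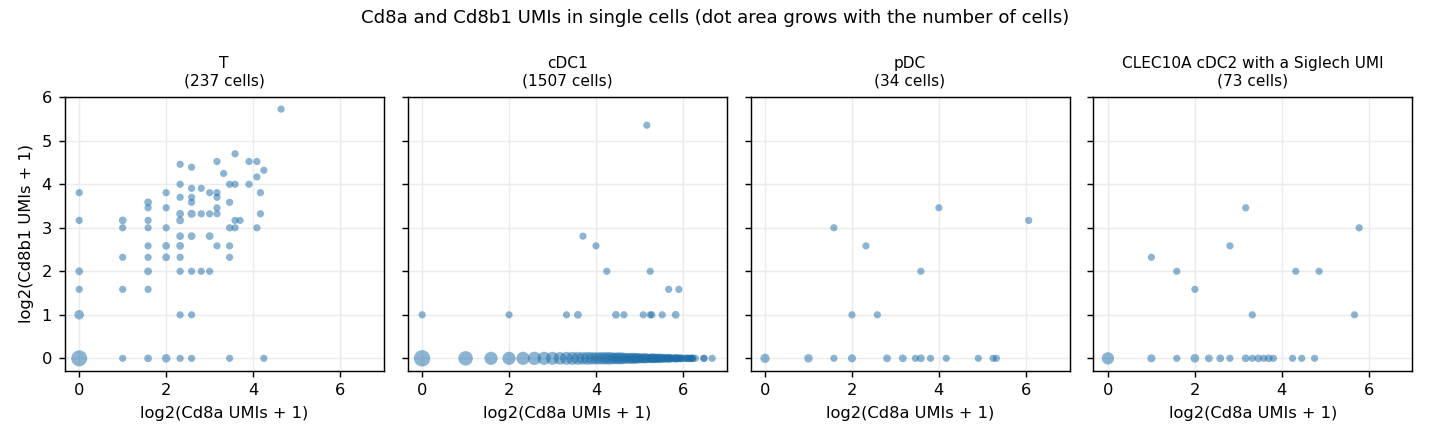
Cd8a UMIs (horizontal axis) and Cd8b1 UMIs (vertical axis) of single cells, both as log2(UMIs + 1), in T cells, cDC1s, pDCs and CLEC10A cDC2s with a Siglech UMI, both samples pooled and the dot area growing with the number of cells. T cells spread along both axes, whereas nearly all 1507 cDC1s lie on the line of 0 Cd8b1 UMIs, apart from a few cells including the one with 40.

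A transcript between the 2 CD8 genes was read as well. Gm44174, a long noncoding RNA gene at bases 71353035 to 71373284 of the plus strand of chromosome 6, ends 142 bases before Cd8a. Across the 9 classes its log2(CPM + 1) profile was the one most like that of Cd8b1 (r = 0.91), all but equal with Rnf146 (r = 0.91). This is a description over classes that share the same 2 samples. Gm44174 had 55.9 and 81.4 CPM in T cells and 0.359 and 0.247 CPM in cDC1s, where Cd8a was highest. T cells were higher by 7.46 log2 (SE 0.65, edgeR adjusted p = 3.12e-08). In pDCs Gm44174 had 0 and 31.7 CPM, so that the pDC value comes from 1 sample.

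Cd4 was shared by many myeloid classes. DCIR2 cDC2s had 241 and 261 CPM, CLEC10A cDC2s had 216 and 232 CPM, and cDC1s had 22.7 and 20.9 CPM. Both cDC2 classes were above cDC1s in both samples, DCIR2 cDC2s by 3.35 log2 (SE 0.19, edgeR adjusted p = 4.43e-11). The 2 cDC2 classes did not differ beyond their spread (0.11, SE 0.17, edgeR adjusted p = 0.857, 5.61% of genes called), and the sign turned among cells passing exactly 1 gate (-0.15) and with doubled gates (-0.05). A Cd4 UMI was seen in 65.1% and 68.5% of DCIR2 cDC2s, 49.6% and 52.6% of CLEC10A cDC2s and 15.1% and 16.5% of cDC1s, against 8.11% and 3.98% of B cells. Thinned to 3000 UMIs these shares were 40.5% and 43.9%, 32.4% and 35.1%, 5.15% and 5.41%, and 3.09% and 1.96%.

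T cells had the highest Cd4 level, 363 and 303 CPM, and did not exceed DCIR2 cDC2s beyond the spread (T minus DCIR2 0.26, SE 0.19, edgeR adjusted p = 0.312, 32.5% of genes called). The T cell sum pools cells with and without Cd4, and 26.0% and 33.7% of its cells held Cd8a with Cd8b1 and no Cd4. Among cells that pass exactly 1 gate, DCIR2 cDC2s were lower by 0.54 (adjusted p = 0.0289). Neighbours down the order were close as well. DCIR2 cDC2s, CLEC10A cDC2s, mature DCs (227 and 176 CPM), pDCs (104 and 201 CPM) and macrophages each did not differ from the next beyond their spread (edgeR adjusted p from 0.149 to 0.857). DCIR2 cDC2s were above pDCs by 0.82 (SE 0.25, adjusted p = 0.0424, 9.88% of genes called), a call that was lost with RLE normalization (adjusted p = 0.0967) and with DESeq2 (adjusted p = 0.0665), and whose size was 1.46 without replicate 2. From macrophages to NK cells the level dropped, with a log2 difference of 2.43 (SE 0.33, edgeR adjusted p = 8.05e-06, 34.5% of genes called). NK cells and cDC1s did not differ beyond their spread (0.25, adjusted p = 0.698). The cDC1s were above B cells, which had 15.6 and 7.24 CPM, by 1.42 (SE 0.36, edgeR adjusted p = 0.00355).

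Macrophages of the VCAM1 gate carried Cd4 at 121 and 164 CPM. DCIR2 cDC2s were above them by 0.67 log2 (SE 0.17, edgeR adjusted p = 0.00289, 51.3% of genes called), and by 0.43 among cells passing exactly 1 gate (adjusted p = 0.0420). A Cd4 UMI was seen in 52.5% and 56.5% of macrophages at median depths of 19570.5 and 19416 UMIs, and 22.1% and 24.9% after thinning to 3000 UMIs. The level was uneven, with a single cell of 76 UMIs in each sample, and it was 127 and 158 CPM without cells that passed another gate. Siglec1 encodes CD169, the marker of marginal zone metallophilic macrophages. Macrophages with a Siglec1 UMI had 104 and 130 CPM of Cd4 and those without had 132 and 198 CPM, so the groups did not overlap but lay close, and the cell of 76 UMIs of each sample was in the group without. Among cells within 3 deviations, the groups overlapped, at 107 and 118 CPM with Siglec1 and 98.6 and 203 CPM without. In this division, with the gene chosen after the data were seen, the log2 difference was -0.49 (SE 0.19, edgeR adjusted p = 0.990), with 0.119% of 10111 genes called, while adjusted p = 0.00934 with the replicate block and 0.0435 without a filter on low counts. Cd8a was 3.16 and 8.88 CPM with Siglec1 and 23.8 and 15.4 CPM without (log2 difference -1.85, edgeR adjusted p = 0.357, 0.00382 with the replicate block and 2.9e-04 without a filter). A single cell held 44 of the 105 Cd8a UMIs without Siglec1 in replicate 1 and 22 of 27 in replicate 2. Among cells passing exactly 1 gate, Cd8a was 2.82 and 3.93 CPM with Siglec1 and 4.11 and 1.40 CPM without, so that no direction held in both samples.

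Cd4 was also read along the gate gene of the DCIR2 cDC2s. Clec4a4 encodes DCIR2, a lectin of cDC2s. When both cDC2 classes were divided by Clec4a4 UMIs, a description added after the data were seen, Cd4 was 186 and 180 CPM in cells with 0 UMIs and 295 and 357 CPM in cells with 1 UMI. It was 242 and 270 CPM with 2 to 3 UMIs and 255 and 247 CPM with 4 to 7 UMIs. The lowest levels, 145 and 156 CPM, came from the 20 and 4 cells with 8 or more UMIs. Across these bins Cd4 was highest at 1 UMI and did not rise or fall steadily. By the gates, cells with 0 or 1 Clec4a4 UMIs are all CLEC10A cDC2s and the others all DCIR2 cDC2s. The bins thus join 2 classes and are not 1 gradient. Median depth was 10644 and 10534 UMIs per cell at 0 Clec4a4 UMIs and 20215.5 and 19912 at 8 or more, and the part of depth was not tested. Cd8a was 83.1 and 81.2 CPM at 0 Clec4a4 UMIs, 14.3 and 3.61 CPM at 1 UMI and 5.45 and 6.69 CPM at 2 to 3 UMIs.

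Outside the pDCs, single cells that held a coreceptor UMI mostly carried 1 kind. No coreceptor UMI was held by 86.5% and 92.0% of B cells and 82.1% and 86.1% of NK cells. In DCIR2 cDC2s, 61.9% and 64.2% of cells held Cd4 UMIs without CD8 UMIs, and 3.19% and 4.29% held both kinds. In cDC1s, 75.3% and 76.1% held Cd8a alone and 12.7% and 14.4% held Cd4 together with a CD8 gene. Among cDC1s with a Cd8a UMI, 14.2% and 15.7% also held a Cd4 UMI, while of the shallower cDC1s without one, 21.8% and 25.0% did. In T cells the 2 lineages were visible. Cd4 alone was held by 54.0% and 38.0% of T cells, Cd8a with Cd8b1 and no Cd4 by 26.0% and 33.7%, and no coreceptor UMI by 8.0% and 15.5%. In pDCs, 7 of 14 and 8 of 20 cells held Cd4 and a CD8 gene together.

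**Figure D3:**
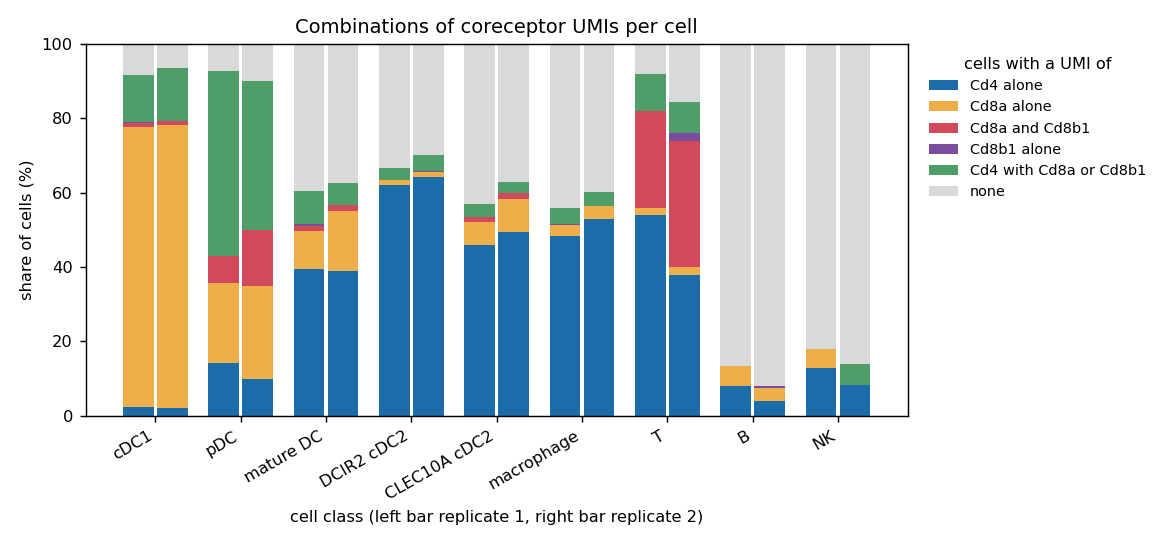
Shares of cells (%) by the combination of coreceptor UMIs they held, in the 9 classes, with the left bar for replicate 1 and the right bar for replicate 2. Cd8a alone fills most of the cDC1 bars and Cd4 alone most of the DCIR2 cDC2 bars, while in T cells Cd8a comes together with Cd8b1.

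Cd8a and Cd4 differed in opposite directions between mature DCs with and without Il12b, the gene of the p40 chain of IL-12, a cytokine that cDC1s are known to make. Mature DCs with an Il12b UMI, 25 and 44 cells, had 575 and 756 CPM of Cd8a, and the 122 and 143 cells without had 87.9 and 75.1 CPM. The log2 difference was 3.29 (SE 0.21, edgeR adjusted p = 5.77e-05), in a contrast where 14.2% of 8484 genes were called. Cd4 ran the opposite way, with 50.2 and 19.9 CPM in cells with Il12b and 265 and 239 CPM in cells without (-2.79, SE 0.33, edgeR adjusted p = 0.000548). The groups did not overlap for either gene. Median depths were 11724 and 13200.5 UMIs with Il12b and 9613.5 and 10411 UMIs without, and the part of depth was not tested. Without cells with a CD3 UMI, all mature DCs together had 172 and 257 CPM of Cd8a. Over all mature DCs, 37.0% and 25.0% of cells with a Cd8a UMI also held a Cd4 UMI, against 50.8% and 51.0% of the shallower cells without Cd8a. Cd8b1 was too low to be tested in this division. Cells passing the mature DC gate and the cDC1 gate were 6 and 15. Among mature DCs passing exactly 1 gate, Cd8a was 347 and 372 CPM with Il12b and 79.4 and 80.8 CPM without (2.34, edgeR adjusted p = 0.000103).

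CLEC10A cDC2s were divided by Siglech, a lectin of pDCs and their relatives, in a comparison added after the data were seen. Siglech is also a gate gene of the pDC class, which was assigned first, so the Siglech cells here are those that the pDC gate did not take. The 2 gates overlap, as 7 of 14 and 13 of 20 pDCs also passed the CLEC10A gate. The 37 and 36 cells with a Siglech UMI had 644 and 311 CPM of Cd8a and the 457 and 380 cells without had 18.5 and 35.8 CPM (4.10, SE 0.38, edgeR adjusted p = 0.000751, 5.85% of 10152 genes called). Cd8b1 was higher too, at 59.2 and 38.5 CPM against 2.14 and 4.15 CPM (3.91, SE 0.50, edgeR adjusted p = 0.00301). Cd4 was lower in the Siglech cells, at 93.8 and 56.5 CPM against 225 and 248 CPM (-1.71, SE 0.22, edgeR adjusted p = 0.00286). Cells with a Siglech UMI held 261 of the 356 Cd8a UMIs of the CLEC10A class in replicate 1 and 121 of 276 in replicate 2. Of its Cd8b1 UMIs they held 24 of 35 and 15 of 33.

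**Figure D4:**
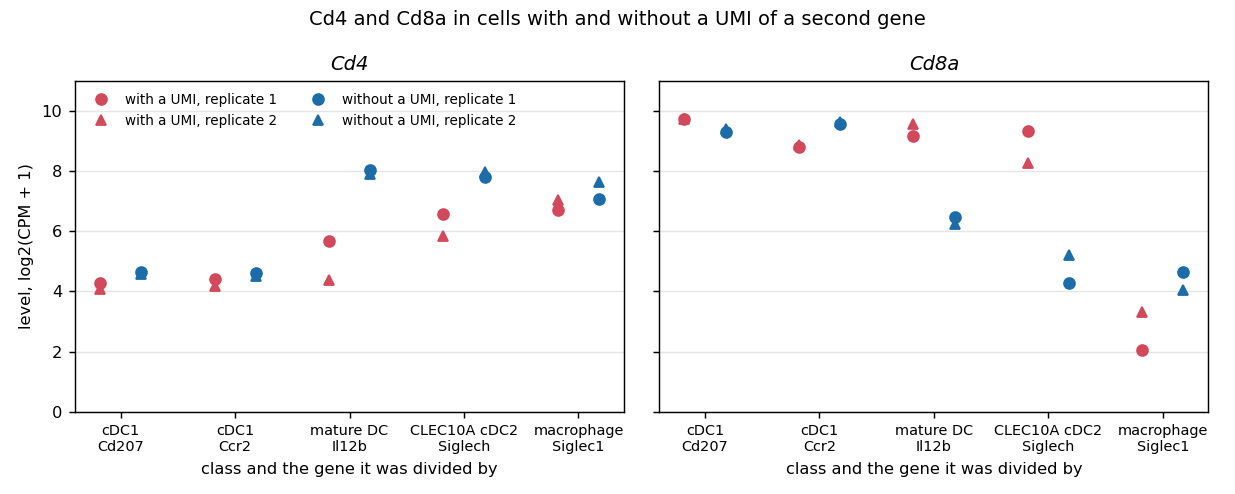
Cd4 and Cd8a levels as log2(CPM + 1) in cells with (red) and without (blue) a UMI of the gene named under each class, with circles for replicate 1 and triangles for replicate 2. The widest gaps are those of mature DCs divided by Il12b and CLEC10A cDC2s divided by Siglech, where Cd4 and Cd8a move in opposite directions.

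The partners of the coreceptors in T cells were then read in the same classes. Lck, the kinase that the tails of CD4 and CD8α bind, had 701 and 783 CPM in T cells but 1.32 and 1.30 CPM in cDC1s and 1.22 and 1.46 CPM in DCIR2 cDC2s. Zap70, the kinase recruited to the activated receptor, had 101 and 129 CPM in T cells and 0.359 and 0.494 CPM in cDC1s. The log2 differences of cDC1s from T cells were -8.84 for Lck (SE 0.26, edgeR adjusted p = 8.03e-14) and -7.72 for Zap70 (SE 0.51, adjusted p = 5.97e-10). DCIR2 cDC2s were lower than T cells in the same genes, with log2 differences of -8.98 and -8.37. Of the 15 genes of the T cell receptor and kinase list tested, 14 were lower in cDC1s than in T cells and 0 higher, with a median of -8.13 against 0.07 over all genes, of which 16.9% were lower and 20.3% higher. In DCIR2 cDC2s 12 were lower and 2 higher (median -8.37 against 0.05 over all genes, of which 14.5% were lower and 17.9% higher), the higher ones being the phosphatase Ptprc (CD45) and the kinase Csk, both broadly used by leukocytes. Between cDC1s and DCIR2 cDC2s, 4 of 16 were lower in cDC1s and 0 higher, with a median of 0.09 against -0.00030 for all genes, of which 16.6% were called in each direction. These were Cd5, a scavenger receptor-like brake on receptor signals (-2.42, SE 0.27, edgeR adjusted p = 6.02e-07), Ptprc (-1.31), the adaptor Lcp2 (-1.25) and Csk (-0.58). Lck (0.14, adjusted p = 0.863) and Zap70 (0.64, adjusted p = 0.618) did not pass.

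Regulators known to set the choice between CD4 and CD8 in the thymus came next. Runx3 is known to silence Cd4 in CD8 T cells. It had 426 and 441 CPM in the Cd4-bearing DCIR2 cDC2s, 132 and 155 CPM in cDC1s, and 148 and 185 CPM in T cells. DCIR2 cDC2s were above cDC1s (cDC1 minus DCIR2 -1.42, SE 0.13, edgeR adjusted p = 2.61e-08) and above T cells by 1.44 (SE 0.15, adjusted p = 1.83e-07). Zbtb7b encodes ThPOK, the factor of the CD4 lineage that keeps CD8 genes off. It had 70.1 and 78.2 CPM in DCIR2 cDC2s and 44.6 and 46.1 CPM in cDC1s (cDC1 minus DCIR2 -0.54, SE 0.18, edgeR adjusted p = 0.0250). Among the 16 regulators, 7 were lower and 2 higher in cDC1s than in DCIR2 cDC2s, with a median of -0.45 against -0.00030 over all genes, of which 16.6% were called in each direction. The others that passed included Tcf7 (-4.26), Gata3 (-2.43), Ets1 (-1.91) and Satb1 (-1.57), transcription factors of T cell development, and Myb, a progenitor factor, which was higher (1.57). Against T cells, 10 of 16 were lower in cDC1s and 0 higher (median -1.74, with 16.9% of all genes lower and 20.3% higher). In DCIR2 cDC2s 9 were lower than in T cells and 1 higher (median -1.64, with 14.5% of all genes lower and 17.9% higher), the higher one being Runx3.

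**Figure D5:**
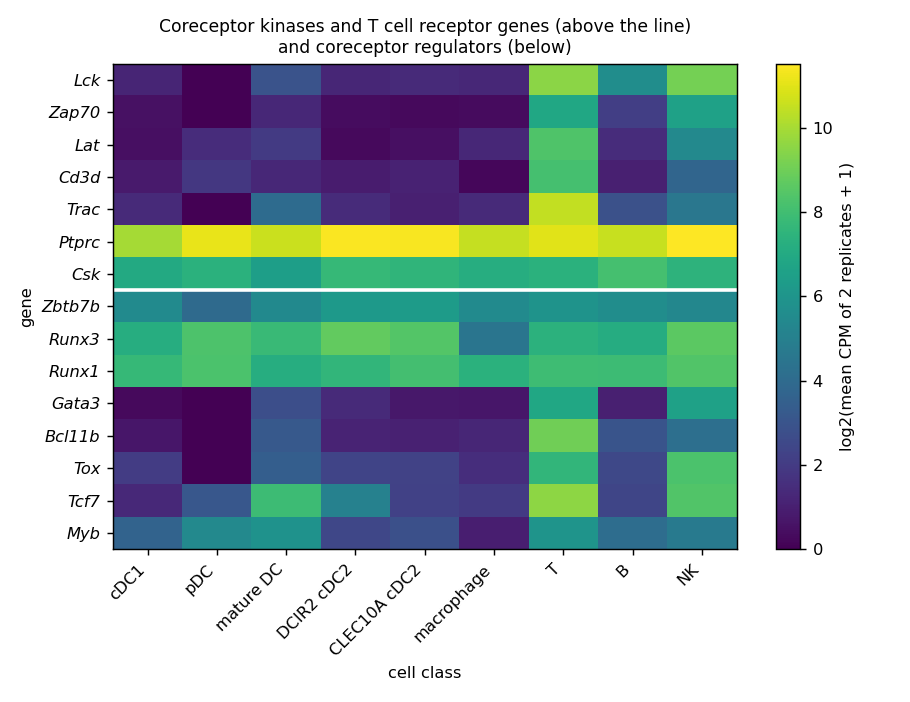
Mean level of 2 replicates as log2(CPM + 1), by color, of T cell receptor and kinase genes (above the white line) and coreceptor regulators (below) in the 9 classes. Lck, Zap70, Lat, Cd3d and Trac are bright in T cells and dark in cDC1s and cDC2s, while Runx3 is brighter in both cDC2 classes than in cDC1s.

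The ligands of the coreceptors were on the dendritic cells as well. CD4 binds MHC class II, whose chain gene H2-Ab1 had 12298 and 12793 CPM in cDC1s and 9995 and 9836 CPM in DCIR2 cDC2s. Reads of class I genes can be split between near-identical copies, so single class I values are uncertain. Of 9 ligand genes tested, 2 were higher in cDC1s than in DCIR2 cDC2s, H2-Ab1 (0.51, SE 0.19, edgeR adjusted p = 0.0461) and H2-D1 (0.36, adjusted p = 0.0139), and 0 were lower, with a median of 0.24. With 16.6% of all genes higher in this contrast, that count was near the background. The list was read in the divisions as well. In cDC1 cells with a Ccr2 UMI 8 of 9 were lower and 0 higher (median -0.41, with 8.32% of all genes lower and 7.62% higher), among them H2-Eb1 (-0.49, SE 0.04, edgeR adjusted p = 5.66e-05). In cDC1s with a Cd207 UMI 3 of 9 were higher and 0 lower (median 0.14, with 0.422% of all genes higher and 0.379% lower). In mature DCs with Il12b, where 8.38% of all genes were higher and 5.79% lower, 5 were higher, all of them genes of class I molecules or B2m, their shared light chain, and 2 were lower, H2-Ab1 and the CD4 ligand Il16.

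Genes with the most similar profile across the 9 classes were, for Cd8a, Sh3pxd2b (r = 0.88), Psma7 (0.86), the cDC1 gate gene Clec9a (0.80), Ccr9 (0.80), a gate gene of pDCs, and Nek6 (0.79). For Cd4 they were Clip1 (r = 0.91), Nbn (0.89), Zfp277 (0.89), the adaptor Fyb (0.89) and Il6ra (0.88), a chain of the IL-6 receptor. For Cd8b1 they were Gm44174, Rnf146 (r = 0.91), Klhdc1 (0.89), the phospholipase Plcg1 of T cell receptor signals (0.88) and Cacul1 (0.86). These were the highest of 6200 genes that reached 50 CPM in a class, and the points share the same 2 samples.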

How the data were processed

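UMI counts per cell and gene were deposited for each sample. Per the file headers, the authors made these counts with the BD Rhapsody WTA Analysis Pipeline (version 1.12.1) on GRCm38 with GENCODE vM19, with refined cell calling on and intronic reads counted, and read them into R 4.2.3 and Seurat 4.3.0.1. The members and gene lists were chosen with earlier results of these data known.

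All cells of the files were used, and counts were summed per sample and class. edgeR 4.0.16 (TMM, filterByExpr, quasi-likelihood test) was fitted to the 18 sums in 1 model, with 12230 genes tested and Benjamini-Hochberg adjustment within each of 36 contrasts at 0.05. Each division of a class by a UMI of another gene had its own model of 4 sums, and that gene was left out. SE was taken as the size of the fitted log2 difference over the root of its F statistic. CPM is UMIs per 1000000 UMIs of the class. A marker counted as raised if its log2(CPM + 10) exceeded that of the other cells by over 1 and at least 10% of cells held it. Gate minimums were Vcam1 20, C1qb 5, Ccr7 2, Fscn1 1, Clec9a 2, Xcr1 1, Siglech 3, Ccr9 1, Cd79a 3, Cd3e 2, Ncr1 1, Clec4a4 2 and Clec10a with Cd209a 2. No doublets were removed, and Scrublet in scanpy 1.11.5 called 62 cells (0.970%), which an alternative left out. A floor is 3 counts. Named genes were the members, gate and dividing genes, those that passed the test in 3 lists (up to 6 per contrast, largest first), with Lck, Zap70, Zbtb7b and Runx3 always, the annotated neighbours, and the 5 most similar profiles per member. Siglec1 and the Siglech division were chosen after the data were seen, and Ccr2 because earlier results had shown it to differ within cDC1s. A gene of the kinase list is counted but not reported singly here.

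Nothing says that the 2 samples came from separate animals, so p-values measure the spread between them, which may be technical. Replicates differed by more than sampling noise in every class. Classes of 1 sample were prepared together, which pairs them. Both samples were captured in 1 run, and whether they were separate libraries is not stated in what was read. The correlation of deviations of 36 class pairs ran from -0.038 to 0.26 (median 0.043), and a model with the sample as a replicate block was an alternative. The fits were tested on simulated data with 200 genes changed per comparison. Of the 2-fold changes, 191 were recovered for cDC1s against DCIR2 cDC2s, 158 for T cells against cDC1s and 198 for cDC1s by Cd207. Only 59 were recovered for pDCs against B cells and 57 for mature DCs by Il12b. False calls were most frequent for cDC1s by Cd207 at 4-fold, with 23 beside 200 recovered.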

Additional observations from a re-analysis of the deposited data

Results flagged for a closer look

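The 1471 cells that passed no gate entered no comparison and carried all 3 genes above the level in B cells, which served as the background. Cd4 stood at 222 CPM in replicate 1 and 243 CPM in replicate 2, close to both cDC2 classes. Cd8a stood at 50.4 and 53.8 CPM, and Cd8b1 at 7.14 and 14.2 CPM. A single cell held 39.6% of the Cd8b1 UMIs of these cells in replicate 1. Without cells with a CD3 UMI, Cd8b1 had 36 of 48 UMIs (5.59 CPM) in replicate 1 and 18 of 93 UMIs (2.91 CPM) in replicate 2, so most of the level in replicate 2 lay in cells with a CD3 UMI. With 2 samples, single samples could not be tested for standing apart.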

How the results depend on the processing

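Of 236 alternative values of the 20 main comparisons, 212 kept their direction and their side of the threshold or moved by less than the spread between replicates. The cause of the others was not tested. For Cd8a, cDC1s minus pDCs came to 0.61 without a filter on low counts (adjusted p = 0.00258), and cDC1s without Ccr2 minus cDC1s with it to 0.89. For Cd4, DCIR2 cDC2s minus pDCs came to 0.70 with RLE normalization, 0.72 with DESeq2, 1.08 for cells passing exactly 1 gate and 0.59 with doubled gates, none of them called. DCIR2 cDC2s minus CLEC10A cDC2s came to -0.15 for cells passing exactly 1 gate and -0.048 with doubled gates, and DCIR2 cDC2s minus T cells to -0.54 for cells passing exactly 1 gate (called).

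With either replicate left out, which leaves no test, Cd8a of cDC1s ranged from 3.61 to 3.85 against CLEC10A cDC2s, 0.40 to 0.94 against pDCs, 1.57 to 1.81 against T cells, 1.64 to 2.27 against mature DCs and 7.20 to 7.32 against B cells. It ranged from 0.35 to 0.47 by Cd207 and 0.8987 to 0.9022 by Ccr2. Cd4 of DCIR2 cDC2s ranged from 3.15 to 3.43 against cDC1s, 0.12 to 0.18 against CLEC10A cDC2s, 0.67 to 1.46 against pDCs, -0.32 to 0.029 against T cells and 0.63 to 0.86 against macrophages. Cd8b1 of cDC1s minus B cells ranged from 2.73 to 3.53.

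Among the other pairs, signs turned where both levels were near each other or near 0 UMIs. Cd4 of pDCs minus macrophages was 0.25 with doubled gates. Cd8a of macrophages minus NK cells was -0.77 within 3 deviations, -1.71 for cells passing exactly 1 gate and -1.06 without Scrublet doublets. Cd8a of B cells minus DCIR2 cDC2s was -0.0055 without a filter, -0.025 for cells passing exactly 1 gate, and -0.065 and -0.031 without replicate 1 and 2. Cd8b1 of mature DCs minus CLEC10A cDC2s was -0.18 without replicate 1 and 1.59 without replicate 2, of B cells minus DCIR2 cDC2s -1.70 without replicate 2 and 1.13 without replicate 1, of DCIR2 cDC2s minus macrophages -0.063 for cells passing exactly 1 gate, and of macrophages minus NK cells -2.25 with DESeq2 0 without replicate 1 and 1.17 without replicate 2.

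The replicate block changed no call of the 3 coreceptor genes printed in the report except those of Cd4 and Cd8a in macrophages divided by Siglec1, where log2 values were -0.48 and -1.88. RLE normalization moved the median of all genes by 0.0039 to 0.15 log2 against TMM. Depth limits Cd8b1 in classes with few UMIs and every value of the pDC class.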

Other observations

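The protein-coding neighbours of the coreceptor genes were read in the same classes, 3 on each side. Of the 5 tested neighbours of Cd4, 3 were lower and 1 higher in cDC1s than in DCIR2 cDC2s, in a contrast with 33.3% of all genes called. Gpr162 (-2.65, SE 0.43, edgeR adjusted p = 6.08e-05), P3h3 (-1.50, SE 0.46, adjusted p = 0.0155) and Lag3 (-0.90, SE 0.25, adjusted p = 0.00883), the gene of another MHC class II receptor, had the direction of Cd4, and Mlf2 was higher (0.51, SE 0.12, adjusted p = 0.00241). Ptms did not pass (0.17, adjusted p = 0.520). Lag3 was highest in pDCs, with a mean of 207 CPM, against 18.5 CPM in DCIR2 cDC2s and 4.18 CPM in T cells.

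Of the 5 tested neighbours of the CD8 genes, 1 was higher in cDC1s than in DCIR2 cDC2s, Krcc1 (0.50, SE 0.13, edgeR adjusted p = 0.00547), and 0 were lower, which is near the 16.6% of all genes higher in that contrast. Rmnd5a (0.03), Rnf103 (0.39), Chmp3 (-0.07) and Smyd1 (0.98) did not pass. Neither Fabp1 nor Gnb3, the sixth neighbours, had enough counts to be tested.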
